A study of Mus musculus with 4 samples.

Results

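Type 1 conventional dendritic cells (cDC1) were taken from droplet single-cell RNA data of mouse spleen and selected on the RNA molecules each cell barcode carried. Each captured molecule is counted once through its unique molecular identifier (UMI). A barcode was kept when Xcr1 and Clec9a together had at least 1 UMI, Flt3 and Zbtb46 together at least 1, Cd3e 0, Cd79a and Cd79b together at most 2, C1qa, C1qb and C1qc together under 10, and mitochondrial transcripts under 10% of its UMIs. These conditions found 55 of 33120 barcodes. The pBIC10 library gave 32 of 14991 barcodes, and the pBIC library gave 23 of 18129. The members were chosen by the UMI counts of these genes, so their levels are a description and are not tested.

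Spleens came from 1 female pBIC10 mouse and 1 female pBIC mouse, each with 1 gene expression library and 1 T-cell receptor (TCR) library. The labels give the genotypes by these names and not by their alleles; the series concerns interleukin-10 (IL-10) made by lymphoma B cells. Live cells were sorted by GFP, which marks the lymphoma, and mixed before loading so that 20% were lymphoma cells and 80% were other cells. The lymphoma share was therefore fixed by the mixing. In barcodes with at least 10 UMIs of Cd79a and Cd79b, which hold lymphoma and normal B-lineage cells, Il10 had 13 UMIs in pBIC10 and 1237 UMIs in pBIC, or 0.330 and 32.2 CPM (the count of a gene divided by all UMIs of the same barcodes and scaled as counts per 1e6). The cDC1 barcodes held 370893 UMIs in pBIC10 and 321233 in pBIC, with medians of 10524.5 and 10946 per barcode. With 1 mouse per genotype, no test between genotypes was possible, and intervals are 95% intervals that cover counting error only. No cDC1 barcode carried a TCR contig or was called a doublet. The libraries shared 712 barcode sequences over all barcodes and 0 among cDC1 barcodes.

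Conventional dendritic cells take up antigen and present it to T cells. The cDC1 branch depends on the transcription factors IRF8 and BATF3. It takes up material from dying cells and moves it onto MHC class I for CD8 T cells, a process that needs Wdfy4 in mice. The receptor encoded by Clec9a binds actin of dead cells. The cDC1 receptor XCR1 binds a chemokine released by activated CD8 T cells and NK cells. The branch is also known as a source of interleukin-12 and of the T-cell attractants CXCL9 and CXCL10.

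Most, but not all, of the barcodes matched the label. Naaa, an acid amidase that marks cDC1 and was not used for selection, had UMIs in 26 of 32 pBIC10 and 19 of 23 pBIC barcodes. Its UMIs were not confined to cDC1. They lay in 13 of 32 pBIC10 and 34 of 87 pBIC cDC2-like barcodes, a gate defined below. In barcodes with 10 or more C1q UMIs the shares were 62.0% in pBIC10 and 41.2% in pBIC. A stricter signature was set after the values had been seen: at least 3 of the 5 genes Naaa, Ppt1, Rab7b, Gpr141b and Gcsam, and no UMI of Siglech, which marks plasmacytoid dendritic cells. It held for 25 of 32 pBIC10 barcodes and 15 of 23 pBIC barcodes. Of the remaining barcodes, 3 of 7 in pBIC10 and 4 of 8 in pBIC had Siglech UMIs, and each of these also had UMIs of Bst2, which plasmacytoid cells express highly. The Siglech barcodes of pBIC included the 3 that held all 103 UMIs of Klk1 in that library.

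The signature was less frequent just inside the Xcr1 and Clec9a limit. With exactly 1 UMI of these genes, 3 of 8 pBIC10 and 1 of 6 pBIC barcodes carried the signature, against 22 of 24 and 14 of 17 with 2 or more UMIs. Siglech barcodes lay on both sides of that division: 2 of the 3 in pBIC10 and 1 of the 4 in pBIC had exactly 1 UMI. Just outside the limit, at 0 UMIs with every other condition met, 1 of 303 pBIC10 and 1 of 331 pBIC barcodes carried it. Naaa averaged 38.5 and 20.2 CPM in those outside barcodes of pBIC10 and pBIC. Because of this mixture, each difference between the genotypes is given for all cDC1 barcodes and, where it changes, for the signature-positive ones.

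**Figure D1:**
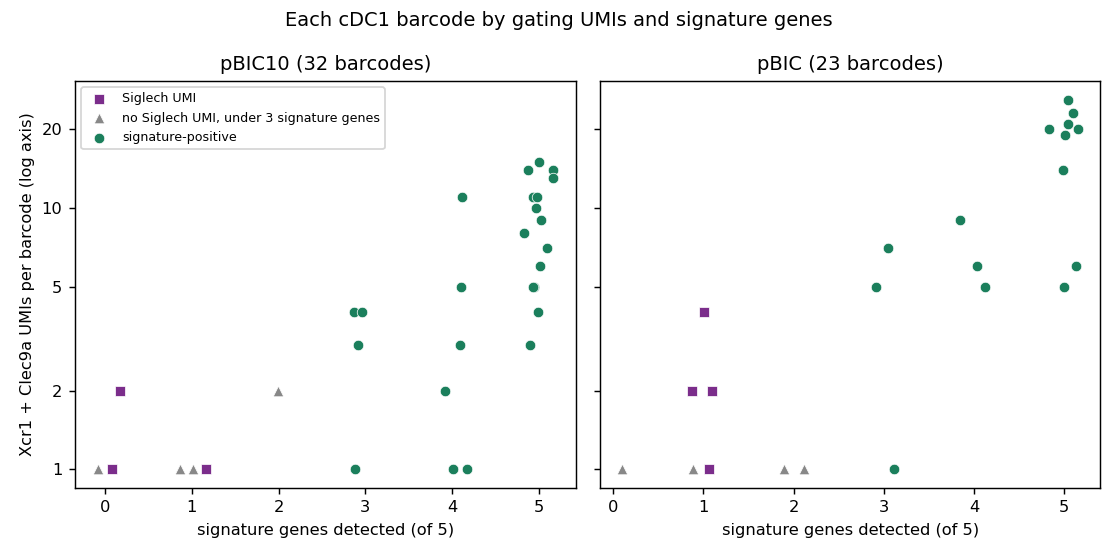
Each point is 1 cDC1 barcode, with the number of the 5 signature genes detected (jittered sideways) on the x axis and Xcr1 plus Clec9a UMIs on a logarithmic y axis, pBIC10 on the left and pBIC on the right. Green circles are the 25 pBIC10 and 15 pBIC signature-positive barcodes, purple squares have a Siglech UMI, and grey triangles have neither; the squares and triangles lie at 0 to 2 signature genes.

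The selecting genes were within 2-fold of each other in the libraries. Xcr1 stood at 226 CPM (95% interval 181 to 280) in pBIC10 and 346 CPM (284 to 416) in pBIC cDC1, and Clec9a at 256 and 277 CPM. In signature-positive barcodes Xcr1 stood at 271 and 521 CPM, a log2 ratio of -0.94 (-1.37 to -0.52). The growth factor receptor gene Flt3 was at 194 and 218 CPM, and Zbtb46, a transcription factor gene of conventional dendritic cells, at 78.2 and 99.6 CPM. Xcr1 varied widely between barcodes, with a lowest value of 0, a median of 1 and a highest of 12 UMIs in pBIC10, against 0, 2 and 20 UMIs in pBIC.

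The cDC1 transcription factor genes were detected, but not only in cDC1. Irf8 reached 1820 CPM in pBIC10 and 1927 CPM in pBIC, Batf3 181 and 187 CPM, and Id2 1526 and 1068 CPM. B-lineage barcodes had 755 and 151 CPM of Irf8, and T-cell barcodes of pBIC10 had 719 CPM of Id2. Naaa stood at 768 and 722 CPM, and Ppt1, a lysosomal thioesterase gene, at 1103 and 1089.5 CPM. For comparison, Naaa in barcodes with 10 or more C1q UMIs, which resemble macrophages, was at 190 CPM in pBIC10 and 165 CPM in pBIC. In cDC2-like barcodes it was at 79.7 and 53.0 CPM, and in T-cell barcodes at 8.51 and 6.14 CPM.

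Cd8a, whose product is found on splenic cDC1 as a homodimer, could be set against Cd8b1, the partner chain of CD8 T cells. Signature-positive cDC1 held 52 Cd8a and 3 Cd8b1 UMIs in pBIC10, and 47 Cd8a and 1 Cd8b1 UMIs in pBIC. T-cell barcodes had 0.644 Cd8a UMIs per Cd8b1 UMI in pBIC10 and 0.884 in pBIC. Over all cDC1 barcodes the Cd8b1 counts were 12 and 42, and 41 of the 42 in pBIC lay outside the signature-positive barcodes. Those 41 lay in 3 barcodes, with 7, 16 and 18 UMIs, that also had Siglech and Klk1 UMIs. Cd8b1 was not confined to T-cell barcodes: B-lineage barcodes held 14119 UMIs of it in pBIC10 and 152 in pBIC.

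**Figure D2:**
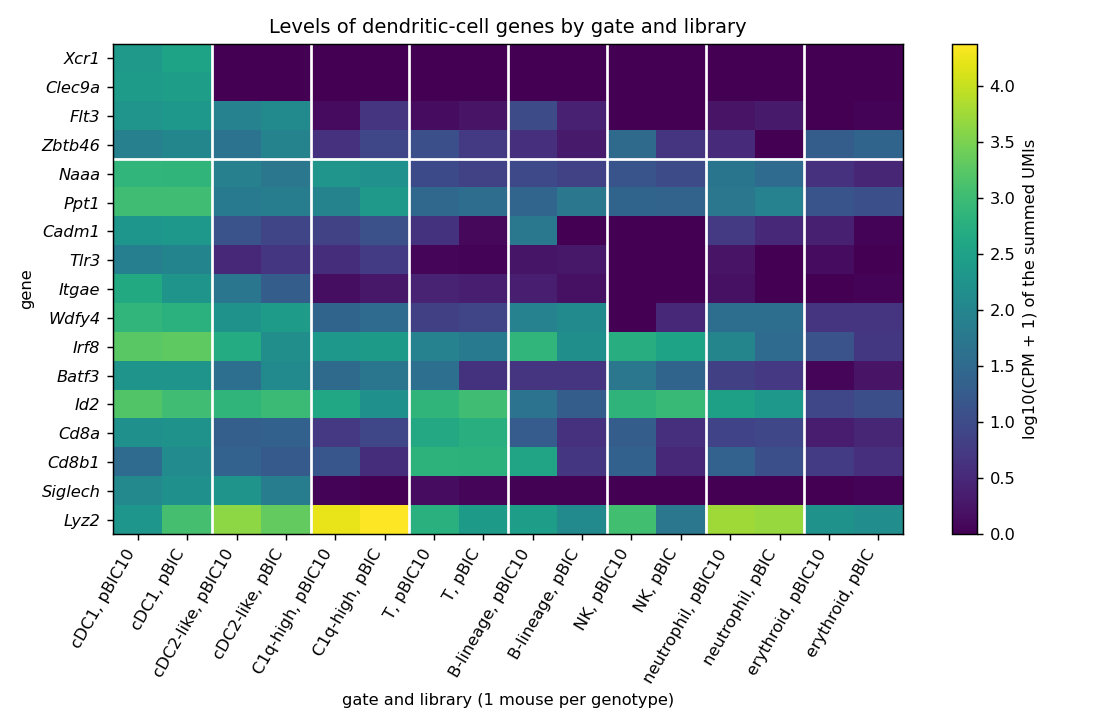
Colour gives log10(CPM + 1) of the summed UMIs for 17 genes (rows) in 8 gates of barcodes, each with pBIC10 left of pBIC (columns). The 4 genes above the horizontal white line are rule genes; below it, Naaa, Ppt1, Cadm1, Tlr3 and Itgae are brightest in the 2 cDC1 columns, and Siglech is seen in cDC1 and cDC2-like columns.

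To show what separates cDC1 from their closest relatives, they were compared within each mouse with cDC2-like barcodes. These had at least 1 UMI of Cd209a, Clec10a or Clec4a4 with the other conditions alike and no Xcr1 or Clec9a UMI, and numbered 32 in pBIC10 and 87 in pBIC. Genes of either gate were left out of the test. With edgeR's quasi-likelihood test on the 4 sums, the mouse as a block and Benjamini-Hochberg adjusted p under 0.05, 114 of 5791 genes were higher in cDC1 (1.97% of those tested) and 83 were lower (1.43%). The fit rests on 1 residual degree of freedom from 2 mice, and without the block 35 genes were higher and 14 lower.

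Genes of the cDC1 signature moved one way. Of 21 tested members of the signature list, 18 were higher in cDC1 and 0 lower, with a median log2 difference of 2.99 beside -0.0072 for all tested genes. The list holds genes known to mark these cells, and the gates were split on Xcr1 and Clec9a. The count therefore describes the gates and is not separate evidence of identity. Cadm1, an adhesion molecule gene, had 197 CPM in cDC1 and 12.3 CPM in cDC2-like barcodes of pBIC10, and 218 and 7.11 CPM in pBIC (log2 difference 4.56, edgeR adjusted p = 3.59e-04). Tlr3, the endosomal sensor of double-stranded RNA, had 75.5 and 2.04 CPM in pBIC10 and 93.4 and 3.95 CPM in pBIC (log2 difference 4.67, edgeR adjusted p = 0.00159). Both genes were far above the cDC2-like level in each mouse.

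The rule for named genes picked 10 per direction. Arpin, which encodes an inhibitor of branched actin assembly, had 43.1 CPM in pBIC10 cDC1 and 49.8 CPM in pBIC cDC1, with 0 UMIs in both cDC2-like sums (edgeR adjusted p = 0.00642), and Gramd2 likewise had 32.4 and 34.2 CPM against 0 UMIs (0.0136). Rab7b, a late endosomal GTPase gene, had 162 CPM in pBIC10 cDC1 and 165 CPM in pBIC cDC1, against 2.04 CPM and 0 UMIs in cDC2-like barcodes (edgeR adjusted p = 3.59e-04). Gcsam, Gpr141b, Plpp1, Gpr4 and Ttc39a completed the list beside Tlr3 and Cadm1, with cDC1 levels from 45.8 CPM for Gpr4 and Ttc39a in pBIC10 to 286 CPM for Gpr141b in pBIC10. Ttc39a lost its call without the block (edgeR adjusted p = 0.0752), and Plpp1 with DESeq2 (0.145).

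Irf8 was also higher in cDC1, at 1820 against 498 CPM in pBIC10 and 1927 against 147 CPM in pBIC (log2 difference 2.82, edgeR adjusted p = 0.00399, and 0.0816 without the block). Batf3 did not pass, at 181 against 38.8 CPM in pBIC10 and 187 against 125 CPM in pBIC (edgeR adjusted p = 0.123). Its UMIs lay in 71.9% of cDC1 and 28.1% of cDC2-like barcodes in pBIC10, and in 65.2% and 75.9% in pBIC. Id2 had 1526 against 725 CPM in pBIC10 and 1068 against 964 CPM in pBIC. Among receptors for dead cells, 2 of 5 tested genes were higher and 0 lower: Havcr2, the TIM-3 gene, with 189 against 40.9 CPM in pBIC10 and 143 against 34.8 CPM in pBIC (edgeR adjusted p = 0.00446), and the scavenger receptor gene Cd36 (0.0205, and 0.0829 without the block). Of 10 tested innate sensors, Tlr3 and Tlr11, a mouse receptor for a protozoan profilin, were higher and 0 were lower. In the class I and cross-presentation list 3 of 21 were higher and 0 lower, namely Wdfy4, Rab43 and Pdia3. In the class II list 1 of 13 was higher, H2-DMb1, whose product helps load peptides, and 0 were lower. Without the block, Tlr11, Wdfy4, Rab43, Pdia3 and H2-DMb1 lost their calls, with edgeR adjusted p between 0.0576 and 0.240. None of the 24 cell-division genes passed in either direction with edgeR, nor did any of the 6 tested growth factor receptor genes. At an unadjusted p under 0.05 there were 4 genes of the division list and 1 of the receptor list, and DESeq2 called 0 in both. In simulated data the edgeR test called 17.9% of 2-fold changes, so differences of that size would mostly be missed.

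Genes lower in cDC1 than in cDC2-like barcodes included members of the inhibitory list, which went both ways. Cd274, the PD-L1 gene, had 8.09 against 102 CPM in pBIC10 and 15.6 against 147 CPM in pBIC (log2 difference -3.36, edgeR adjusted p = 0.00251). Of the 10 tested inhibitory ligands and receptors, 4 were lower (Cd274, Sirpa, Lilrb4a and Cd300a) and 2 higher (Havcr2 and Btla). Without the block Sirpa, Lilrb4a and Cd300a did not pass, with edgeR adjusted p between 0.0953 and 0.201. Of 17 tested maturation genes, 2 were higher and 3 lower. Rgs1, a regulator of G-protein signalling, had 27.0 against 274 CPM in pBIC10 and 37.4 against 651 CPM in pBIC (edgeR adjusted p = 3.59e-04). Tarm1, B4galt6, Ccrl2 and Rtp4 were lower as well, with edgeR adjusted p between 0.00190 and 0.0118. With DESeq2, Ccrl2 (adjusted p = 0.0810) and Rtp4 (0.0698) did not pass.

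The same 10 held S100a8, S100a9, Lcn2 and Chil3, which neutrophils or monocytes express. S100a8 had 89.0 against 1659 CPM in pBIC10 and 9.34 against 549 CPM in pBIC (log2 difference -4.62, edgeR adjusted p = 2.27e-04). Without the block none of the 4 passed, with edgeR adjusted p between 0.0598 and 0.112, and Chil3 did not pass with DESeq2 (0.408). The 10 genes of the neutrophil list summed to 251 and 18.7 CPM in cDC1 of pBIC10 and pBIC, and to 2815 and 1288 CPM in cDC2-like barcodes, with Ltf, Mmp8 and Cxcr2 at 0 in both cDC1 sums. The part of such transcripts in these 4 calls was not tested. The cDC2-like barcodes also held Siglech in 6 of 32 pBIC10 and 6 of 87 pBIC barcodes.

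**Figure D3:**
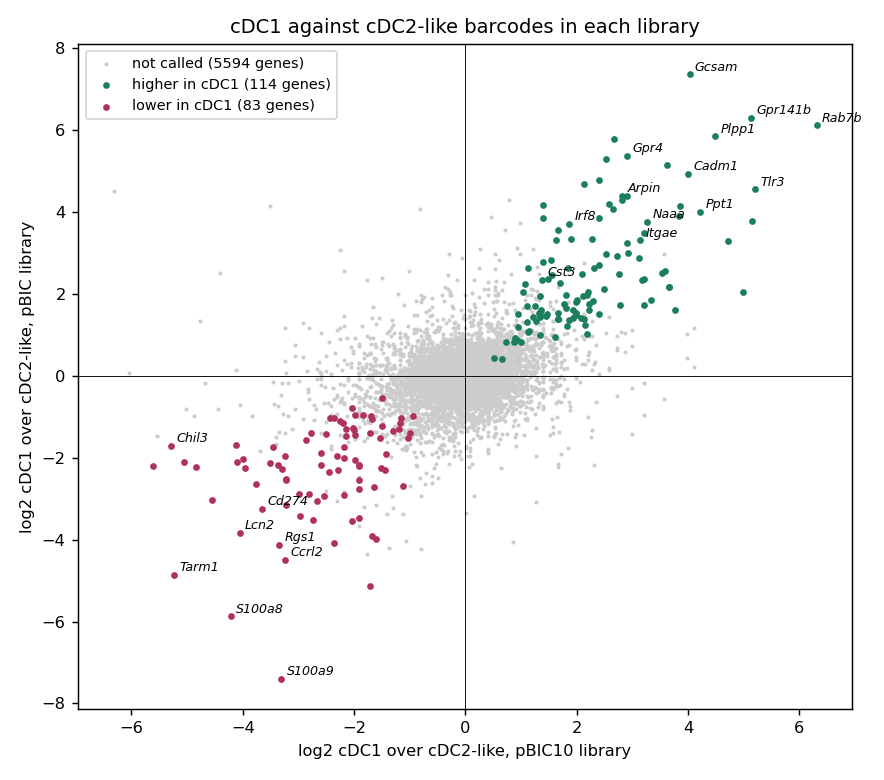
Each point is 1 of the 5791 tested genes, with log2 of its cDC1 level over its cDC2-like level in pBIC10 on the x axis and in pBIC on the y axis; a sum of 0 UMIs was set to 3 UMIs. The 114 genes called higher in cDC1 (green) lie in the upper right and the 83 called lower (red) in the lower left, and grey points did not pass.

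Among the conventional dendritic cells defined here, cDC1 made up 50% (32 of 64 barcodes, 95% Clopper-Pearson interval 37.2 to 62.8) in pBIC10 and 20.9% (23 of 110, 13.7 to 29.7) in pBIC. Signature-positive barcodes gave 49.0% in pBIC10 and 15.6% in pBIC. The size of the share depended on the cDC2-like definition: with Sirpa among its genes, it was 19.5% (13.7 to 26.4) in pBIC10 and 12.2% (7.87 to 17.7) in pBIC, and these intervals overlap. Drawn down to 2000 UMIs per barcode, 10 of 13 barcodes were cDC1 in pBIC10 and 13 of 27 in pBIC. Fewer cells and less RNA per cell cannot be told apart where a definition needs UMIs.

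Between the genotypes, 29 of the 2077 genes with at least 50 UMIs over both cDC1 sums were at least 2-fold higher in pBIC10 with a counting interval that excluded no difference (1.4%), and 135 were lower (6.5%). The median over these genes was a log2 ratio of -0.16, and 64.2% lay below 0. Scaling by TMM moved every ratio up by 0.147 and gave 46 higher and 94 lower genes, and DESeq2's size factors moved it by 0.207 and gave 59 and 76. In signature-positive barcodes 37 of 1454 genes were higher (2.54%) and 62 lower (4.26%), of which 17 and 37 were past the fold in all cDC1 barcodes too. These are differences between 2 libraries, and mouse and genotype cannot be told apart. Counts from the gene lists below are to be read beside the 1.4% and 6.5% over all genes.

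The rule for named genes, which ranks by the interval bound nearest no difference, put Ccl17 first among the higher ones. Ccl17 encodes a chemokine for CCR4-bearing T cells. It had 219 UMIs in pBIC10 cDC1 and 0 in pBIC cDC1, or 590.5 CPM (515 to 674) and under a floor of 9.34 CPM (3 UMIs). Set against that floor, the pBIC10 level was 63.2-fold higher. On the log2 scale this is 5.98, with 5.67 as the lower end of its counting interval, and 4.55 in signature-positive barcodes, with 4.23 as the lower end. UMIs lay in 17 of 32 pBIC10 barcodes, or 53.1% (34.7 to 70.9), and in 0 of 23 pBIC barcodes, which allows a share of barcodes with a UMI of up to 13.0% (3 counts of the total). At 2000 UMIs per barcode the share was 35.5% in pBIC10 and 0% in pBIC. As a gauge of free RNA, 0.816% of T-cell barcodes in pBIC10 and 0.290% in pBIC had a Ccl17 UMI, at medians of 7602.5 and 6442 UMIs.

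Much of the Ccl17 RNA sat in few barcodes. One pBIC10 barcode with 1 signature gene, 25 Mgl2 and 27 Lyz2 UMIs held 80 of the 219, and one with no signature gene, 34 Fscn1, 11 Ccr7 and 27 Ccl22 UMIs, the pattern of a mature dendritic cell, held 38. The 25 signature-positive barcodes held 101 UMIs in 15 barcodes, 334 CPM, against 0 UMIs in the 15 of pBIC. Ccl17 was at 131 CPM in pBIC10 and 0 UMIs in pBIC in cDC2-like barcodes, and at 88.0 CPM and 0 UMIs in the C1q-high gate. In B-lineage barcodes it stood at 0.508 and 15.1 CPM.

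Cxcl9, an interferon-gamma-induced attractant of CXCR3-bearing T cells, was the other way round. It had 218 CPM (173 to 271) in pBIC10 cDC1 and 464 CPM (392 to 545) in pBIC cDC1, a log2 ratio of -1.09 (-1.50 to -0.69). It was present in 8 of 32 pBIC10 barcodes, 25% (11.5 to 43.4), and in 16 of 23 pBIC barcodes, 69.6% (47.1 to 86.8). At 2000 UMIs per barcode these shares were 12.9% and 52.2%, and in signature-positive barcodes 28% and 86.7%, at 228 and 621 CPM. T-cell barcodes had Cxcl9 UMIs in 7.31% in pBIC10 and 4.76% in pBIC. The cDC2-like level was 229 CPM in pBIC10 and 228 CPM in pBIC, while C1q-high barcodes had 731 and 2599 CPM.

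In signature-positive cDC1 of pBIC10, 12 barcodes had Ccl17 only, 4 had Cxcl9 only, 3 had both and 6 had neither. In pBIC, 13 had Cxcl9 only and 2 had neither. The pBIC10 barcodes with Ccl17 were not the deeper ones, with a median of 9385 UMIs against 16098.5 in those without, both within the signature-positive set.

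Other cytokine genes were scarce. Il12b had 0 UMIs in all 32 pBIC10 and 23 pBIC barcodes, which allows shares of barcodes with a UMI of up to 9.38% and 13.0% by the same 3 counts, and Il10 had 0 UMIs in both. Ccl5 went past the fold in the opposite sense to its own signature value: it had 407 CPM in pBIC10 and 171 CPM in pBIC over all cDC1 barcodes, but 130 of its 151 pBIC10 UMIs lay in 1 barcode, and signature-positive barcodes had 59.5 and 142 CPM. Of the 4 genes of the cytokine and chemokine list with 50 UMIs, 1 was higher (Ccl5) and 1 lower (Cxcl9).

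**Figure D4:**
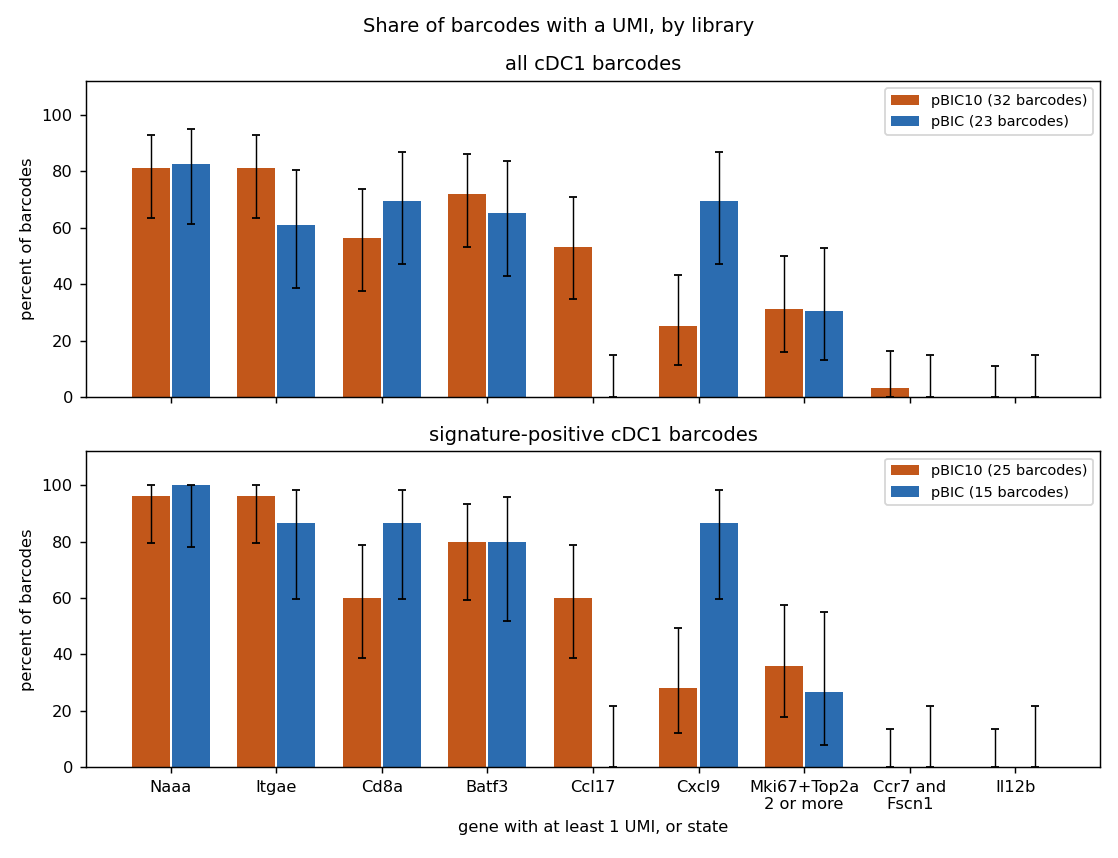
Bars give the percent of cDC1 barcodes with at least 1 UMI of a gene, or in a state, in pBIC10 (orange, left) and pBIC (blue, right), with 95% Clopper-Pearson intervals as error bars; all 32 and 23 barcodes are above and the 25 and 15 signature-positive ones below. Ccl17 stands at 53.1% against 0% and Cxcl9 at 25% against 69.6% of all cDC1 barcodes, and the intervals of the other shares overlap.

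Interferon-response genes were described by their medians. The 6 genes of the type I list with 50 UMIs had a median log2 ratio of -0.85 between pBIC10 and pBIC, beside -0.16 for all genes. All 6 lay below 0, and 0 were higher and 1 was lower past the fold. Irf7 had 89.0 and 168 CPM and Bst2 388 and 691 CPM in pBIC10 and pBIC, and in signature-positive barcodes Bst2 had 162 and 161 CPM. The median of the 3 members with 50 UMIs there was -0.57, with 0 higher and 1 lower past the fold. Of the 7 interferon-gamma genes with 50 UMIs, 6 had ratios below 0, and the median was -0.52. Cxcl9 was lower and Socs1, a brake on JAK-STAT signalling, was higher, at 111 and 43.6 CPM (log2 ratio 1.34, 0.44 to 2.33). In signature-positive barcodes Socs1 had a log2 ratio of 0.67 on 32 UMIs in pBIC10 and 14 in pBIC, under the 50 needed. The 5 genes of the list with 50 UMIs there all lay below 0, with 0 higher and 2 lower past the fold and a median of -0.82.

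The IL-10 receptor genes were measured at low counts. Il10ra, the ligand-binding chain, had 140 CPM (52 UMIs) in pBIC10 and 93.4 CPM (30 UMIs) in pBIC, a log2 ratio of 0.59 (-0.09 to 1.29). Il10rb, the shared chain, had 40.4 CPM (15 UMIs) and 84.1 CPM (27 UMIs), under the 50 UMIs needed. Of the 6 genes of the receptor and STAT3 list with 50 UMIs, 0 were higher and 1 was lower, beside 1.4% and 6.5% of all genes. The lower one was the kinase gene Jak1, at 51.2 and 137 CPM (log2 ratio -1.42, -2.28 to -0.61). In signature-positive barcodes 1 of 5 was higher, Ddit4, and 0 were lower. Jak1 was not among those 5, as it held 13 UMIs there in pBIC10 and 28 in pBIC, under the 50 needed. Socs3, a STAT3 target, had 24.3 and 71.6 CPM, also under 50 UMIs.

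MHC class II genes had the highest summed CPM of the lists, and 8 of 13 had ratios above 0. H2-Aa had 12583 CPM in pBIC10 and 9361 CPM in pBIC, H2-Ab1 10000.2 and 6609 CPM, and the invariant chain gene Cd74 29129.7 and 21975 CPM. None of these was past 2-fold, with log2 ratios of 0.43, 0.60 and 0.41. The list had 0 higher genes and 1 lower, beside 1.4% and 6.5% of all genes, and a median of 0.18. The lower one was March1, a ubiquitin ligase gene that removes class II from the surface, at 86.3 CPM in pBIC10 and 193 CPM in pBIC (log2 ratio -1.16, -1.82 to -0.52), and at 92.5 and 232 CPM in signature-positive barcodes.

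In the class I and cross-presentation list, 0 of 17 genes with 50 UMIs were higher and 1 was lower, beside 1.4% and 6.5% of all genes. The lower one was Cybb, an NADPH oxidase subunit gene, at 67.4 and 305 CPM. Of its UMIs, 61 of 98 in pBIC lay in 1 barcode, and signature-positive barcodes held 3 in pBIC10 and 7 in pBIC. Wdfy4 had 763 and 616 CPM, Tap1, a peptide transporter subunit gene, 458 and 535 CPM, and H2-K1 1416 and 2185 CPM.

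Within the cDC1 signature list, 2 of 18 genes with 50 UMIs were higher in pBIC10 and 0 lower. Itgae encodes CD103, the integrin chain that binds E-cadherin. It had 450 CPM (385 to 524) in pBIC10 and 181 CPM (137 to 233) in pBIC, a log2 ratio of 1.32 (0.88 to 1.77), and 529 and 261 CPM in signature-positive barcodes. It was found in 26 of 32 and 14 of 23 barcodes, and at 2000 UMIs per barcode in 45.2% and 17.4%. The intervals of these shares overlap both before drawing and after it (27.3 to 64.0 in pBIC10 and 4.95 to 38.8 in pBIC). T-cell barcodes had an Itgae UMI in 1.25% in pBIC10 and 0.858% in pBIC. In cDC2-like barcodes Itgae had 51.1 and 18.2 CPM.

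Cst3, a cysteine protease inhibitor gene, had 32511 CPM in pBIC10 and 16181 CPM in pBIC, a log2 ratio of 1.01 (0.96 to 1.05). In signature-positive barcodes it had 36943 and 23143 CPM, a log2 ratio of 0.67, under 2-fold. Its cDC2-like levels were 12599 and 3179.9 CPM, and its C1q-high levels 3237 and 1046 CPM. T-cell barcodes had 324 and 163 CPM of Cst3 and B-lineage barcodes 219 and 101 CPM, so it was higher in pBIC10 in these 4 gates too. The other 16 members had log2 ratios from -0.39 (Gcsam) to 0.61 (Gpr141b), and from -0.70 (Gcsam) to 0.30 (Gpr141b) in signature-positive barcodes, with 0 past the fold. Of the dendritic-cell transcription factors, 0 of 8 genes with 50 UMIs passed in either direction; Irf8 had a log2 ratio of -0.08 and Batf3 of -0.05. The 4 innate sensors and the 4 growth factor receptors with 50 UMIs also had 0 past the fold, as did the 4 receptors for dead cells.

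The remaining genes that the rule named as higher in pBIC10 were Adam23, Ccnd2, Rap2a, Mkrn1, AY036118, Gnb4 and Serpina3g. Adam23, a membrane protein of the ADAM family without protease activity, had 154 CPM in pBIC10 and 21.8 CPM in pBIC (log2 ratio 2.82, 1.68 to 4.20), and all 57 pBIC10 UMIs lay in 18 signature-positive barcodes. In cDC2-like barcodes it had 42.9 and 73.5 CPM. Ccnd2, a G1 cyclin gene, had 178 and 28.02 CPM (log2 ratio 2.67, 1.66 to 3.86), and Rap2a, a small GTPase gene, 235 and 52.9 CPM (2.15, 1.39 to 2.99). Rap2a was also higher in pBIC10 in C1q-high barcodes, at 256 and 70.4 CPM (1.86). Its ratios in cDC2-like, T-cell and B-lineage barcodes were 0.52, 0.29 and 1.44.

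Mkrn1, a ubiquitin ligase gene, had 911 and 330.0 CPM with a log2 ratio of 1.47 (1.15 to 1.79), and Gnb4, a G-protein subunit gene, 129 and 34.2 CPM (1.92, 0.95 to 3.01). The transcript AY036118 had 2469.7 and 1043 CPM (1.24), and 0.98 in signature-positive barcodes. Serpina3g, a protease inhibitor gene, had 981 and 436 CPM (1.17), and a log2 ratio of -0.0036 in the 17 pBIC10 and 12 pBIC barcodes without Mki67 or Top2a UMIs. All 7 were higher in pBIC10 in signature-positive barcodes as well, with log2 ratios from 0.98 to 4.12.

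Genes named as lower in pBIC10 included Klk1, Ptpn6, Plac8, Cdc14a, Irf2bp2, Macf1, H2afx, Plekho2 and Glrx. Klk1, a kallikrein protease gene expressed by plasmacytoid dendritic cells, had 9 UMIs in pBIC10 and 103 in pBIC and 0 in the signature-positive barcodes of both. Ptpn6, the SHP-1 phosphatase gene, had 116 and 470.1 CPM with a log2 ratio of -2.02 (-2.54 to -1.52), and 89.2 and 185 CPM in signature-positive barcodes. Plac8 had 477 and 1419.5 CPM (-1.57, -1.83 to -1.32), and 350.3 and 929 CPM there. Ptpn6 was lower in pBIC10 in other gates too. Its log2 ratios were -0.89, -0.99, -0.63 and -1.42 in cDC2-like, C1q-high, T-cell and B-lineage barcodes.

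Irf2bp2, a transcriptional co-regulator gene, had 51.2 and 187 CPM (log2 ratio -1.87, -2.69 to -1.10), and Glrx, a glutaredoxin gene, 67.4 and 205 CPM (-1.61). Cdc14a, Plekho2 and H2afx had ratios of -2.28, -1.55 and -1.50, which were -2.56, -1.93 and -1.49 in signature-positive barcodes. Of 142 H2afx UMIs in pBIC, 63 lay in 1 barcode. Macf1, a cytoskeletal linker gene, had -1.82 over all cDC1 barcodes and -0.93 with an interval of -2.005 to 0.10 in signature-positive ones. Several of these genes were lower in pBIC10 in other gates too. In cDC2-like, C1q-high, T-cell and B-lineage barcodes Irf2bp2 had ratios of -1.22, -0.84, -1.42 and -1.18. In the same order Plekho2 had -0.99, -0.99, -0.53 and -1.01, H2afx -1.58, -0.41, -0.84 and -1.63, and Macf1 -0.28, -0.63, -0.54 and -0.89. Klk1 was higher in pBIC10 in cDC2-like barcodes (1.18) and, at low levels, in T-cell barcodes (5.33, 1.52 and 0.038 CPM). In B-lineage barcodes Klk1 had 0.152 CPM in pBIC10 and 0 in pBIC (0.96 against the floor). Plac8 was higher in T-cell barcodes (1.37), and Cdc14a and Glrx in B-lineage barcodes (0.62 and 1.11).

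**Figure D5:**
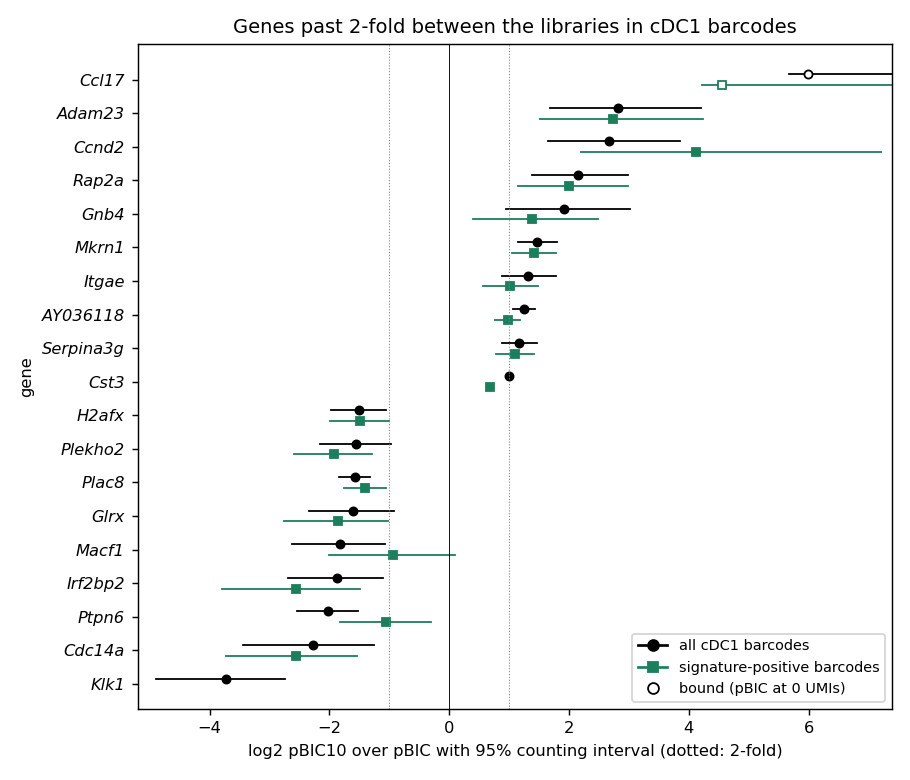
Points give the log2 ratio of pBIC10 over pBIC for 19 named genes with 95% counting intervals as lines, black circles for all cDC1 barcodes and green squares for signature-positive ones; dotted lines mark 2-fold. Open symbols are bounds for Ccl17, which had 0 UMIs in pBIC; Klk1 has no green square because it had 0 signature-positive UMIs, and Macf1's green interval crosses 0.

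Dividing barcodes, with at least 2 UMIs of Mki67 and Top2a, were 10 of 32 in pBIC10, 31.2% (16.1 to 50), and 7 of 23 in pBIC, 30.4% (13.2 to 52.9). They were deep, with medians of 16739.5 and 26221 UMIs against 9115 and 9598 in the other barcodes, and after drawing 2000 UMIs the shares were 3.23% and 17.4%. Of 12 division genes with 50 UMIs, 0 were higher and 2 lower in pBIC10: Top2a, at 94.4 and 277 CPM, and the helicase gene Mcm6, at 56.6 and 121 CPM. Their median was -0.34. Of 89 Top2a UMIs in pBIC, 34 lay in 1 barcode.

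Of the 5 survival genes with 50 UMIs, 1 was higher, beside 1.4% of all genes. It was Bcl2a1d, an anti-apoptotic gene, at 151 and 62.3 CPM (log2 ratio 1.28, 0.52 to 2.09). The Bcl2a1 genes are near-identical copies, so the split of reads among them is uncertain; Bcl2a1b had 507 and 283 CPM. Few barcodes that passed the rule looked mature: 1 of 32 pBIC10 and 0 of 23 pBIC barcodes had both Fscn1 and Ccr7, which guides dendritic cells to T-cell zones. That barcode lacked the signature and passed on 1 Xcr1 UMI, with 0 of Clec9a. Mature cells without a UMI of either gene were left out by the rule, so these counts do not measure how common maturation was. Of the 5 maturation genes with 50 UMIs, Ccl17 was higher and 0 were lower. The co-stimulatory ligands had 3 genes with 50 UMIs and 0 past the fold; Cd86 had 113 and 143 CPM. Among inhibitory genes 1 of 4 was lower, beside 6.5% of all genes. It was Pirb, at 48.5 and 140.1 CPM, with 14 of 45 pBIC UMIs in 1 barcode. Signature-positive barcodes held 14 Pirb UMIs in pBIC10 and 18 in pBIC, under the 50 needed, and 0 of the 2 genes of that list with 50 UMIs were past the fold.

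Genes of other cell types moved with the libraries in all cDC1 barcodes. The 14 monocyte and macrophage genes summed to 531 CPM in pBIC10 and 2011 CPM in pBIC, with Adgre1, Ms4a7, Vcan and Slc40a1 at 0 in both, and to 241 and 431 CPM in signature-positive barcodes. Lyz2, the lysozyme gene, had 202 and 1214 CPM, but 350 of 390 pBIC UMIs lay in 1 barcode, and signature-positive barcodes had 126 and 161 CPM. The 11 plasmacytoid genes summed to 882 and 1896 CPM, and to 271 and 270.0 CPM in signature-positive barcodes. The 15 cDC2 genes summed to 359 and 601 CPM over all cDC1 barcodes, and to 258 and 265 CPM in signature-positive ones.

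The 13 B-lineage genes summed to 226 and 336 CPM with Pax5 and Ighd at 0 in both, and the 14 T-cell genes to 477 and 386 CPM. In signature-positive barcodes these sums were 202 and 208 CPM for B-lineage genes and 102 and 189.5 CPM for T-cell genes, so that the T-cell sum was then lower in pBIC10. The T-cell sums over all cDC1 barcodes rest largely on Ccl5 and Cd8b1, and so on few barcodes. Of 151 Ccl5 UMIs in pBIC10, 130 lay in 1 barcode. Of 42 Cd8b1 UMIs in pBIC, 41 lay outside the signature-positive barcodes. These sums are therefore not a level of T-cell RNA across cDC1. NK genes summed to 53.9 and 125 CPM with Ncr1, Klrb1c, Prf1 and Klra8 at 0, and basophil genes to 2.70 and 0 CPM. Erythroid and platelet genes summed to 199.5 and 52.9 CPM. Dissociation-stress genes summed to 2572 and 1818 CPM, and Egr1, an immediate early gene, had 154 and 28.02 CPM (log2 ratio 2.46, 1.43 to 3.66), with 185 and 37.9 CPM in signature-positive barcodes. Their part in the differences above was not tested.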

How the data were processed

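The members and gene lists were chosen with earlier results of these data known. The authors deposited UMI counts per gene and barcode; Cell Ranger 3.0.1 and GRCm39 are named in the submitters' processing notes, while the matrix headers name version 5.0.1, and no gene coordinates are given. TCR contigs, which the authors deposited with UMI counts, served only to look for T cells. UMIs were summed per gate and library and divided by the sum to give CPM. Intervals are at 95%: Poisson (exact) for levels, binomial conditional on the summed count for ratios, and Clopper-Pearson for shares. A gene went past the fold at 2-fold or more with an interval excluding no difference and at least 50 UMIs; a count of 0 took a floor of 3 UMIs. Both kinds of comparison were tested on simulated data. The cDC2-like comparison called 17.9% of 2-fold, 73.1% of 4-fold and 75.8% of 8-fold changes. Between libraries, 49% of genes with a log2 ratio of 1 and 99% with 2 went past the fold.

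The comparison with cDC2-like sums used edgeR 4.0.16 (R 4.3.3, TMM) with the mouse as a block, since both sums of a mouse come from the same library. DESeq2 1.42.0 was an alternative. Residual degrees of freedom left no room to leave out a mouse, and p-values measure the spread between these samples only.

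Named genes were the rule's genes with Naaa; Il10, Il10ra and Il10rb; up to 2 genes per direction past the fold from each list, and the highest and lowest marker by level; 10 per direction between libraries, ranked by the interval bound nearest no difference, with at least 30 CPM, UMIs in 10% of barcodes and 50% of the highest gate's level where higher; and 10 per direction over cDC2-like barcodes by size of change, with adjusted p under 0.05, 30 CPM and the same direction in both mice. The last 2 skipped predicted, sex-linked, haemoglobin, ribosomal, mitochondrial, TCR-segment and immunoglobulin genes. List symbols absent from the files, such as Mx1 and Clec7a, were left out, and older symbols such as March1 were matched. Some genes that the rule names are not reported here. Other genes with values were chosen after their values were seen.

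Scrublet (scanpy 1.11.5) scored barcodes with at least 200 genes at an expected rate of 0.08. Its automatic threshold failed in pBIC (0 calls), so that of pBIC10 (0.310) was used for both after the scores had been seen, giving 367 and 440 calls, none in cDC1. Shares for Ccl17, Cd8b1 and Siglech and the signature were also added after values had been seen. Python 3.11.15, scipy 1.17.1, numpy 2.4.6, pandas 2.3.3 and matplotlib 3.10.9 were used.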

Additional observations from a re-analysis of the deposited data

How the results depend on the processing

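No genotype has a second mouse, so none could be left out of that comparison, and leaving a mouse out of the cDC2-like comparison leaves no residual degrees of freedom; the values of each mouse stand in the report. Between genotypes, 29 genes were higher in pBIC10 and 135 lower. Higher genes numbered 46 with TMM, 59 with DESeq2 size factors, 97 at 1.5-fold, 8 at 100 UMIs and 148 with no UMI filter. Lower genes numbered 76 with DESeq2 size factors, 297 at 1.5-fold, 41 at 100 UMIs, 633 with no filter, 88 with at least 2 Xcr1 and Clec9a UMIs, 46 without barcodes holding Mki67 or Top2a, and 62 in signature-positive barcodes. Fewer barcodes or a higher minimum also leave fewer genes tested; the cause of the other shifts was not tested. Removing Scrublet calls or TCR barcodes changed no cDC1 count.

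Signs turned for Lyz2 (2.14) and Ccl5 (-1.48) with at least 2 Xcr1 and Clec9a UMIs. In signature-positive barcodes they turned for Ccl5 (-1.26), Ltb (0.58), Tcf4 (0.80), Igkc (1.29) and Cd8b1 (1.07). Serpina3g turned (-0.0036) without barcodes holding Mki67 or Top2a, as did the class I list's median (0.021) with DESeq2 size factors.

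Over cDC2-like barcodes, 114 genes were higher and 83 lower in cDC1. Without the replicate block, which pairs the 2 sums of a mouse, these were 35 and 14, and with DESeq2 50 and 29. With at least 1 UMI they were 227 and 267, with at least 2 Xcr1 and Clec9a UMIs 173 and 198, in signature-positive barcodes 257 and 305, and with Sirpa in the cDC2-like gate 125 were lower. None of the 197 calls changed sign where it was tested.

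The cDC1 share was 76.9% in pBIC10 and 48.1% in pBIC at 2000 UMIs per barcode, and 19.5% and 12.2% with Sirpa. At both settings the intervals of the libraries overlap. At 2000 UMIs Cd8a was found in 19.4% and 21.7%, Itgae in 45.2% and 17.4%, and dividing barcodes made up 3.23% in pBIC10. In signature-positive barcodes Itgae was found in 96% and 86.7%, and mature barcodes made up 0% in pBIC10. With 32 and 23 barcodes, a count of 0 allows shares of up to 9.38% and 13.0%.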
